A study of Rattus norvegicus with 12 samples.

Results

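The 9 interferon response genes were followed in cultured rat hepatocytes given the glucocorticoid dexamethasone: the transcription factors Irf1, Irf7 and Stat2, and the antiviral effectors Rsad2, Mx1, Mx2, Ifit2, Ifit3 and Isg15. They were found on the arrays by their symbols, older symbols or RefSeq accessions, as 11 probes of 41012. Rsad2 (named Best5 in the files) and Ifit2 had 2 probes each, and Isg15 was named G1p2_predicted. All 11 probes passed the filter on dim signal, which kept 30978 probes of 26545 genes. Mx1 passed through its female arrays only, and no male vehicle array measured Mx1 or Ifit3 well above background.

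The study set dexamethasone against vehicle in hepatocytes of Sprague-Dawley rats, male or female, 11 weeks old. The cells were isolated by collagenase perfusion and plated. RNA was labelled with Cy3 and hybridised to 1-colour arrays, 12 in all. The 4 groups of 3 arrays were male hepatocytes with 100 nM dexamethasone for 6 h (the labels write the unit as "nm"), male hepatocytes with 0.01% ethanol for 6 h, female hepatocytes with the same dexamethasone treatment and female hepatocytes with the same vehicle. Every culture had been in serum-free medium before treatment. Sex was taken from the titles, since a separate sex field reads male for all 12 samples. Whether a replicate is its own animal or culture is not stated in the labels, so p-values cover the spread from array to array alone, and that spread may be technical.

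Type I interferons bind a receptor on the cell surface whose kinases activate STAT proteins, STAT2 among them. STAT2 takes part with IRF9 in a complex that binds interferon-stimulated response elements in promoters and switches on antiviral genes. Interferon gamma acts through a receptor of its own, and Irf1 is among its target genes. Dexamethasone binds the glucocorticoid receptor, a hormone-activated transcription factor with anti-inflammatory actions.

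Promoter sequences are shown for Rsad2 and Irf1, the 2 genes whose signal passed the test in males. They are the 250 bases before the start site in RefSeq's GRCr8 annotation, read 5′ to 3′ along the gene. The Rsad2 stretch lies at chr6:48788121-48788370 on the minus strand, and its capitals mark a match to the interferon-stimulated response element (GAAA, any 2 bases, GAAA, here on the opposite strand) that begins 147 bases before the start. The Irf1 stretch lies at chr10:38417685-38417934 on the plus strand, and its capitals mark a match to the STAT site (TTCNNNGAA) that begins 142 bases before the start.
Rsad2 promoter: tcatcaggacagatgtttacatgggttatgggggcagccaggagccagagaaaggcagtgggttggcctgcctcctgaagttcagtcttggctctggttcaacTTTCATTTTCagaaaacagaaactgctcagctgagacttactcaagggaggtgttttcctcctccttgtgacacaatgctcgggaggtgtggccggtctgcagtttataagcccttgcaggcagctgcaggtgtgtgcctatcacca
Irf1 promoter: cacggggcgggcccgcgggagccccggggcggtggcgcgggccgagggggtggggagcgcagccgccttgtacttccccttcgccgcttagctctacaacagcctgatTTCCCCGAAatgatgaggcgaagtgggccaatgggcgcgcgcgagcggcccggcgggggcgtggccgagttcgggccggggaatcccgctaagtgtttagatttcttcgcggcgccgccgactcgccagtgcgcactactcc

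Promoters of 6 of the 9 genes were in the RefSeq table, in windows of 300 bases that reach 50 bases past the start. The response element, GAAA and GAAA with any 2 bases between, searched on both strands, was present in 3 of the 6 (Irf7, Rsad2 and Ifit3) and in 3.92% of all 33469 promoters. The Irf7 match, first base 69 before the start, and the Ifit3 match, first base 44 before the start, are shown beside that of Rsad2 because they differ from it by letter or by place.
Rsad2 and Irf7 element: TTTCATTTTC
Ifit3 element: TTTCAGTTTC

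The STAT site TTCNNNGAA was found in 1 of the 6, that of Irf1, against 8.87% of all promoters. The core of the glucocorticoid response element, ACANNNTGT, was found in 0 of the 6 and in 6.86% of all promoters. A match to such short motifs describes the letters of the window and not a bound site.

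Levels are log2 processed signals minus the array's 75th percentile, so that 0 is the signal at that percentile and a difference of 1 is a factor of 2. Levels compare arrays for 1 probe and do not rank probes against each other. Whether groups of arrays overlapped is given as a description of the levels. The share of all probes without overlap was not counted, so a separation is not read as a result. Arrays were not equally bright. Of all probes, those well above background made up 66.5% to 80.4% on male dexamethasone arrays, against 46.0% to 55.7% on male vehicle arrays, and 72.4% to 77.9% on female dexamethasone arrays, against 74.8% to 78.1% on female vehicle arrays. On slide 1, male dexamethasone replicate 1 stood with all male vehicle arrays. Male dexamethasone replicates 2 and 3 shared slide 2 with female vehicle replicates 1 and 2, and the female dexamethasone arrays shared slide 3 with female vehicle replicate 3. Unmeasured probes sat higher on male vehicle arrays. Ifnk and Irf4, above background on 0 of 12 arrays, had means of -5.71 and -5.72 there, against -8.78 and -8.74 on male dexamethasone arrays. The part of this in the male differences of dim probes was not tested. The part of slide and of array brightness in the male response was not tested beyond the blocked and within-slide values given with it. All 8 hepatocyte markers, Alb and Hnf4a among them, were well above background on all 12 arrays.

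**Figure D1:**
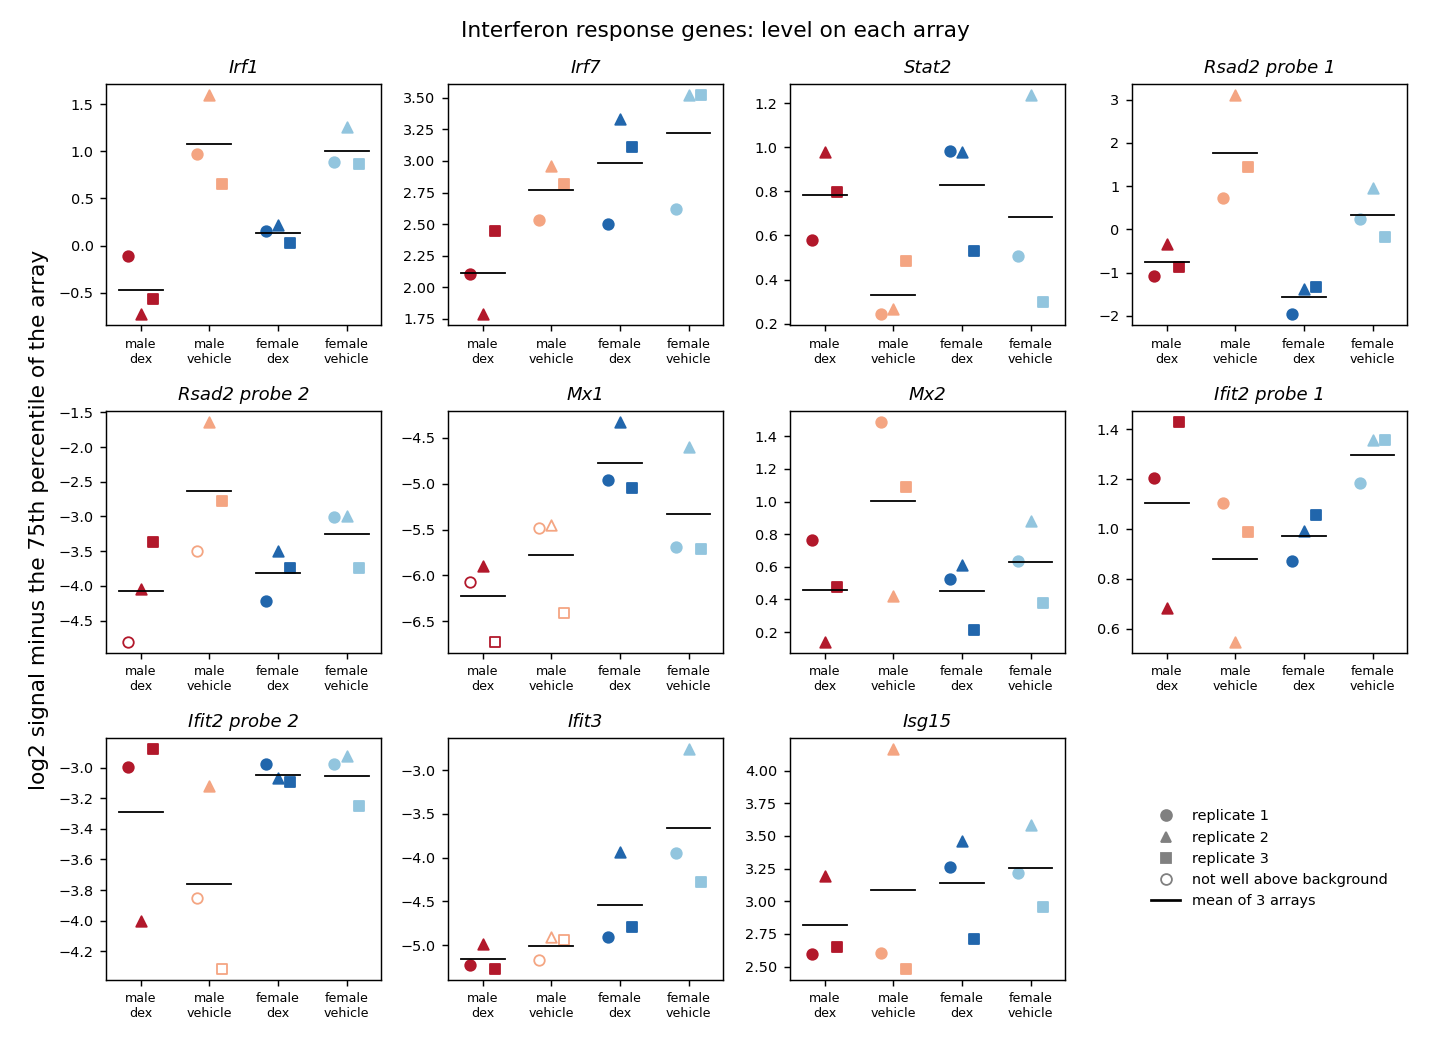
Level of each of the 11 probes on each array (y axis, log2 processed signal minus the array's 75th percentile, own scale per panel) in the 4 groups (x axis). Points are arrays, shaped by replicate number, open where the probe was not well above background, and black bars are means of 3 arrays. Irf1 and Rsad2 probe 1 were lower on all dexamethasone arrays than on all vehicle arrays of the same sex.

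In male hepatocytes Irf1 and Rsad2 fell with dexamethasone, and the other 7 genes did not pass the test. Irf1 was 2.92-fold lower and Rsad2 5.75-fold lower. These 2 of 9 genes lower, and 0 higher, stand beside 4.93% of all tested genes called lower and 5.24% called higher in the same comparison. The split of all calls moved with the scaling, from 1390 higher and 1308 lower here to 2276 higher and 1128 lower under quantile normalization, 1027 and 2183 with the array median and 909 and 3075 with normexp, and Irf1 and Rsad2 passed in each. The median difference of the 9 genes was -0.45, against -0.07 for all genes. That median is the value of Mx1, measured above background on 1 male dexamethasone array and on 0 male vehicle arrays. By quantile normalization the median was -0.19, against 0.04 for all genes, and with normexp -0.44, against -0.25. It is therefore not read as a result about the 9 genes. In a culture, fewer cells of a type and less RNA per cell cannot be told apart.

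Irf1 encodes a transcription factor that is induced by interferon gamma and by inflammatory signals and that activates interferon target genes. Its probe, which spans 235 bases of the genome at chr10:39233708-39233942 (build rn3, plus strand) for its 60 bases, is shown because Irf1 passed the test in males.
Irf1 probe: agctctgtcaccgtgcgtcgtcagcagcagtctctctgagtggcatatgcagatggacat

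Irf1 had levels of -0.11, -0.73 and -0.57 on the male dexamethasone arrays, against 0.98, 1.60 and 0.65 on the male vehicle arrays. The groups did not overlap, and all dexamethasone arrays lay below 0 and all vehicle arrays above it. The difference was -1.54 ± 0.25 (log2, standard error of the fit, n = 3 each; limma adjusted p = 0.00524). Leaving out any 1 array gave differences between -1.76 and -1.28 with an adjusted p of at most 0.0232. With slide as a block, which leaves male dexamethasone replicate 1 against the 3 vehicle arrays of slide 1 (the within-slide value is the same), the difference was -1.19 with a limma adjusted p of 0.121. Fitted on the male arrays alone the adjusted p was 0.0683 in limma, and without replicate 2 of every group the difference was -1.15 with an adjusted p of 0.0697.

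Rsad2 encodes viperin, an interferon-induced enzyme of the endoplasmic reticulum that restricts the replication of many viruses. Probe 1 lies at chr6:44104230-44104289 and probe 2 spans chr6:44106562-44109705, both on the minus strand of rn3. Probe 2 is shown because its 60 bases come from separate stretches of the genome and because it gave a smaller difference than probe 1.
Rsad2 probe 2: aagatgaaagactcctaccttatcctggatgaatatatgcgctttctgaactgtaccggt

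Rsad2 probe 1 had levels of -1.07, -0.35 and -0.86 on the male dexamethasone arrays, against 0.73, 3.12 and 1.44 on the male vehicle arrays. The groups did not overlap, and male vehicle replicate 2 was the highest of all 12 arrays. The difference was -2.52 ± 0.52 (log2, standard error, n = 3 each; limma adjusted p = 0.0146). Without male vehicle replicate 2 it was -1.85, and leaving out any 1 array kept the adjusted p at or under 0.0458 in limma. Without replicate 2 of every group the difference was -2.05 with an adjusted p of 0.0464. The slide-blocked difference was -2.83 with a limma adjusted p of 0.102, and the fit on the male arrays alone gave an adjusted p of 0.0922.

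Rsad2 probe 2 had levels of -4.80, -4.05 and -3.37 on the male dexamethasone arrays, against -3.50, -1.64 and -2.78 on the male vehicle arrays. The groups overlapped, and replicate 1 of each group was not well above background. The probe differed by -1.44 ± 0.47 (log2, standard error, n = 3 each), in the same direction as probe 1, with a limma adjusted p of 0.0808.

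The transcription factors Irf7 and Stat2 differed in opposite directions without passing the test. Irf7, which drives the expression of interferon alpha genes, had levels of 2.11, 1.79 and 2.44 on the male dexamethasone arrays, against 2.53, 2.96 and 2.82 on the male vehicle arrays. Stat2, the signal transducer of the type I receptor, had 0.58, 0.98 and 0.80 on the male dexamethasone arrays, against 0.24, 0.27 and 0.48 on the male vehicle arrays. Neither gene's groups overlapped, with all dexamethasone arrays lower for Irf7 and higher for Stat2, a separation not set beside its share over all probes. The differences were -0.66 ± 0.30 for Irf7 (limma adjusted p = 0.185) and 0.45 ± 0.24 for Stat2 (limma adjusted p = 0.26), as log2 values with standard errors (n = 3 each). With normexp background correction Stat2 passed, at 1.04 (limma adjusted p = 0.0163).

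Among the remaining effectors, the male dexamethasone and vehicle arrays overlapped for every probe. Isg15, a ubiquitin-like protein that is joined to other proteins, had levels of 2.60, 3.20 and 2.65 on the male dexamethasone arrays, against 2.61, 4.17 and 2.48 on the male vehicle arrays. Its sign rested on male vehicle replicate 2: the difference was -0.27 ± 0.41 (log2, standard error, n = 3 each) with that array and 0.27 without it. Mx2, a dynamin-like GTPase, had 0.77, 0.14 and 0.48 on the male dexamethasone arrays, against 1.49, 0.42 and 1.09 on the male vehicle arrays, a difference of -0.54 ± 0.27.

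Ifit2 encodes a protein with tetratricopeptide repeats, of a family that binds viral RNA. Its probe 1 had 1.20, 0.68 and 1.43 on the male dexamethasone arrays, against 1.10, 0.55 and 0.99 on the male vehicle arrays. Its probe 2, above background on 1 of the 3 male vehicle arrays, had -3.00, -4.0 and -2.88 on the male dexamethasone arrays, against -3.85, -3.12 and -4.31 on the male vehicle arrays. The Ifit2 differences were 0.23 ± 0.21 for probe 1 and 0.47 ± 0.33 for probe 2, with limma adjusted p-values of 0.533 and 0.398.

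Mx1, the other dynamin-like GTPase, and Ifit3, a partner of other IFIT proteins, were at the lower limit of the arrays in males. Ifit3 was well above background on all 3 male dexamethasone arrays, at -5.23, -4.98 and -5.27, and on no male vehicle array, at -5.17, -4.90 and -4.94. Mx1 was above background on 1 male dexamethasone array, with levels of -6.07, -5.89 and -6.72, and on no male vehicle array, with -5.48, -5.45 and -6.41. No fold change is given for either, since the bound set by the dimmest measured probes was under 1.

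**Figure D2:**
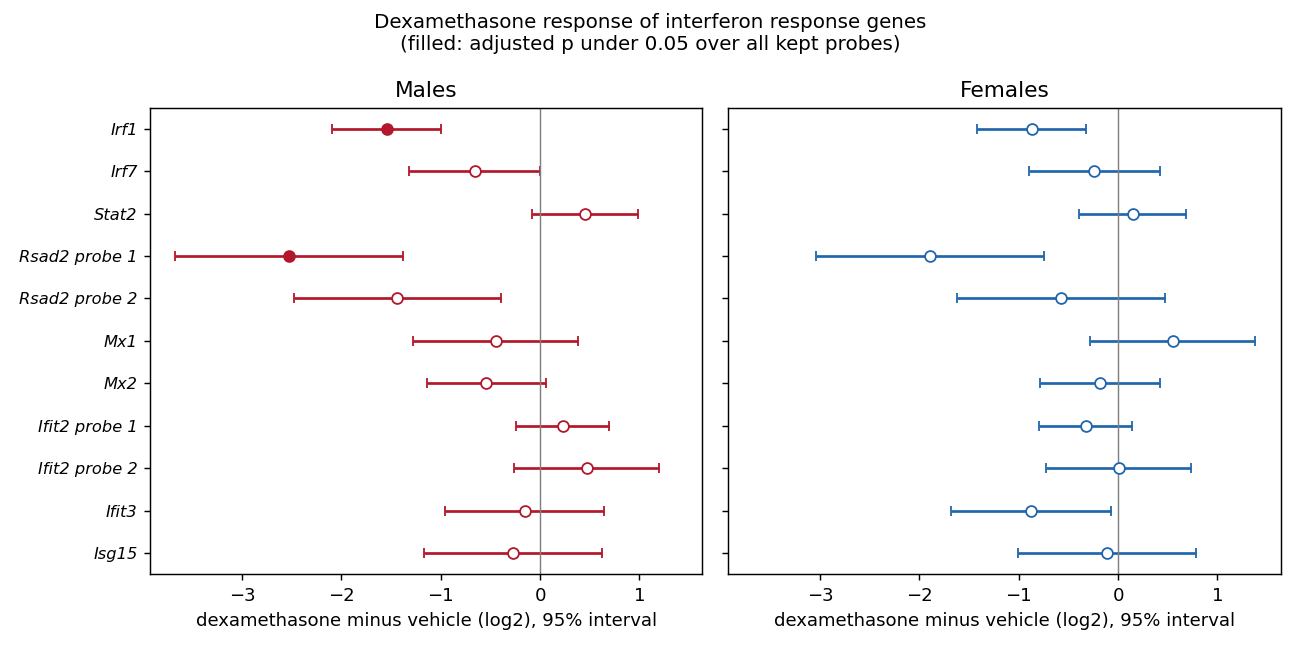
Dexamethasone minus vehicle difference (x axis, log2) of each of the 11 probes (y axis) in males, left, and females, right. Points are fitted differences of 3 arrays against 3 with 95% intervals, filled where the adjusted p over all kept probes was under 0.05. Irf1 and Rsad2 probe 1 are filled in males, at -1.54 and -2.52, and no point is filled in females.

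In female hepatocytes 0 of the 9 genes passed the limma test fitted without a block. With the replicate number as a block, for which no share of all genes is given, 1 (Rsad2) passed. An unadjusted p under 0.05 was reached by 3 of the 9, Rsad2, Irf1 and Ifit3, and by 17.3% of all tested genes. The comparison called 1.08% of all tested genes lower (287) and 2.94% higher (780), against 340 lower and 555 higher with the array median. The median difference of the 9 genes was -0.24, against -0.02 for all genes. Of 7 stellate cell and fibroblast markers all had differences below 0 in females, with a median of -0.81, and 1 passed (Pdgfrb). Their summed signal was 5.28 to 7.10 times the array's 75th percentile on the female dexamethasone arrays, against 8.46 to 14.5 on the female vehicle arrays, and the part of these cells was not tested.

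Irf1 had levels of 0.15, 0.22 and 0.03 on the female dexamethasone arrays, against 0.89, 1.26 and 0.86 on the female vehicle arrays. Rsad2 probe 1 had -1.97, -1.38 and -1.34 on the female dexamethasone arrays, against 0.23, 0.95 and -0.18 on the female vehicle arrays. Neither gene's groups overlapped, with each dexamethasone array below each vehicle array. The differences were -0.87 ± 0.25 for Irf1 (limma adjusted p = 0.0859) and -1.90 ± 0.52 for Rsad2 (limma adjusted p = 0.0743), as log2 values with standard errors (n = 3 each).

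Irf1 passed in 4 of the alternatives and did not pass in 22, and Rsad2 probe 1 passed in 5 and did not pass in 21. With the replicate number as a block, Rsad2 passed (limma adjusted p = 0.0223) and Irf1 did not (0.0693). Fitted on the female arrays alone, Irf1 passed with an adjusted p of 0.0201 and Rsad2 with 0.0235 in limma. That fit also called more of all genes than the fit without a block, so these calls are not read as firmer results. With slide as a block, which here equals the contrast of the 3 dexamethasone arrays with female vehicle replicate 3 on slide 3, the differences were -0.73 for Irf1 and -1.38 for Rsad2, and neither passed (limma adjusted p = 0.487 and 0.60).

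Ifit3 had levels of -4.90, -3.93 and -4.79 on the female dexamethasone arrays, against -3.95, -2.76 and -4.28 on the female vehicle arrays. The groups overlapped through replicate 2, which was the highest in each. The difference was -0.88 ± 0.36 (log2, standard error, n = 3 each; limma adjusted p = 0.244).

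Rsad2 probe 2 had -4.22, -3.50 and -3.75 on the female dexamethasone arrays, against -3.00, -2.99 and -3.74 on the female vehicle arrays. Irf7 had 2.50, 3.33 and 3.11 on the female dexamethasone arrays, against 2.62, 3.52 and 3.52 on the female vehicle arrays. Stat2 had 0.98, 0.98 and 0.53 on the female dexamethasone arrays, against 0.51, 1.24 and 0.30 on the female vehicle arrays. For these 3 probes the groups overlapped.

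Isg15 had 3.26, 3.46 and 2.71 on the female dexamethasone arrays, against 3.22, 3.59 and 2.95 on the female vehicle arrays. Mx2 had 0.52, 0.61 and 0.22 on the female dexamethasone arrays, against 0.64, 0.88 and 0.38 on the female vehicle arrays. Mx1 had -4.96, -4.33 and -5.05 on the female dexamethasone arrays, against -5.69, -4.60 and -5.71 on the female vehicle arrays. The groups overlapped for these 3 genes too, and only Mx1 had a positive difference among them, 0.55 ± 0.38 (log2, standard error, n = 3 each).

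Ifit2 probe 1 was the remaining probe whose female groups did not overlap. It had 0.87, 0.99 and 1.06 on the female dexamethasone arrays, against 1.18, 1.36 and 1.36 on the female vehicle arrays, a difference of -0.33 ± 0.21 (limma adjusted p = 0.529). Probe 2 of the same gene differed by 0.01 ± 0.33, with levels from -3.09 to -2.98 on the female dexamethasone arrays, against -3.25 to -2.92 on the female vehicle arrays.

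The test of the difference between the responses of the sexes, female minus male, called 0 of the 9 genes and 0.105% of all tested genes in limma. An unadjusted p under 0.05 was reached by 0 of the 9 and by 12.1% of all tested genes. For Irf1 the difference between responses was 0.67, with a 95% interval from -0.10 to 1.45. For Rsad2 probe 1 it was 0.63, with an interval from -1.0 to 2.25. The intervals cover responses of like size as well as Irf1 and Rsad2 responses that differ by over 1 log2 unit between the sexes.

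Between the sexes without dexamethasone, 1 of the 9 genes passed: Ifit3 was higher in female than in male vehicle cultures. The comparison called 13.9% of all tested genes. Ifit3 had -3.95, -2.76 and -4.28 on the female vehicle arrays and was not well above background on any male vehicle array. Female levels were at least 1.12-fold higher, a bound from the mean female level and the dimmest probes measured on each male array (limma adjusted p = 0.0345, n = 3 each). The call was lost on leaving out any of 5 single arrays, female vehicle replicate 1 or 2 or any male vehicle array (adjusted p from 0.0538 to 0.0828 in limma). It was also lost with slide as a block (limma adjusted p = 0.295), and the sign turned under normexp background correction, to -0.09. Some markers of other cell types were also higher on the female vehicle arrays. Of 7 stellate cell and fibroblast markers 4 passed as higher (Col1a2, Col3a1, Pdgfrb and Lrat), with a summed signal of 8.46 to 14.5 times the 75th percentile on the female vehicle arrays, against 4.79 to 7.49 on the male vehicle arrays, which did not measure Pdgfrb or Lrat above background. Of 12 Kupffer cell markers Csf1r and Itgam passed as higher, and 2 had differences below 0. Their median difference was 0.92, against -0.06 for all genes. Their summed signal, in which bright probes weigh most, was 41.4 to 92.3 on the female vehicle arrays, against 43.1 to 89.5 on the male vehicle arrays. The part of these cells in the Ifit3 difference was not tested.

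Rsad2 probe 1 differed by -1.43 ± 0.52 between female and male vehicle cultures (log2, female minus male, standard error, n = 3 each) without passing (limma adjusted p = 0.092). It passed without male vehicle replicate 1, at -1.95 (adjusted p = 0.0283), and with normexp, at -1.18 (adjusted p = 0.0441), in limma, and was -0.75 without male vehicle replicate 2. With a replicate block its limma adjusted p was 0.028, though the numbers were not taken to pair these groups. Its groups overlapped, at -0.18 to 0.95 on the female arrays and 0.73 to 3.12 on the male arrays. In dexamethasone 0 of the 9 genes differed between the sexes by the limma test fitted without a block. That fit called 2.97% of all tested genes. With the replicate number as a block Mx1 passed. An unadjusted p under 0.05 was reached by 3 of the 9 (Mx1, Irf7 and Irf1) and by 18.4% of all tested genes. Mx1 was well above background on all 3 female dexamethasone arrays and on 1 male one, and was kept for testing through its female arrays alone. Its place in this count and its call with the replicate block are therefore not read as results, and no size is given. Irf7 differed by 0.87 ± 0.30 (limma adjusted p = 0.148) and Irf1 by 0.60 ± 0.25 (limma adjusted p = 0.226), as log2 values, female minus male, and the groups of neither gene overlapped. Of 7 stellate cell and fibroblast markers 2 passed as higher in females, with a median of 1.10. Of 12 Kupffer cell markers 0 passed, with a median of 0.84, and 1 of 7 tested lymphocyte and NK cell markers passed as higher. The median of all genes was 0.02, and the part of these cells was not tested.

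Replicate 2 tended to hold the highest levels. It was the highest of its group for 5 of the 11 probes in male dexamethasone, where it was also the lowest for 5, against 8 in male vehicle, and for 7 in female dexamethasone, against 9 in female vehicle. The mean over the 9 genes of the level minus the gene's own mean was 0.17 on female dexamethasone replicate 2, against -0.22 on each of the other female dexamethasone arrays, and 0.78 on female vehicle replicate 2, against 0.13 and 0.08. The male dexamethasone arrays lay together at -0.41, -0.40 and -0.45, while male vehicle replicate 2 was at 0.47, above the 0.06 and 0.02 of the other male vehicle arrays. Each replicate 2 was thus the highest array of its group by this mean, narrowly so in male dexamethasone.

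Markers of Kupffer cells, the resident macrophages of liver, moved with the replicate number. The summed signal of 12 such markers, Cd163, Csf1r and Clec4f among them, was 48.3, 103 and 51.9 times the array's 75th percentile on male dexamethasone arrays 1 to 3, against 43.1, 89.5 and 49.6 on male vehicle arrays. It was 49.3, 110 and 85.5 on the female dexamethasone arrays, against 41.4, 92.3 and 67.1 on the female vehicle arrays. The sum was highest on replicate 2 in all 4 groups, and 0 of the 12 markers passed the limma test for either response. Ptprc was the marker not well above background on any male vehicle array. Of 3 plasmacytoid dendritic cell markers, Siglech was well above background on the 3 female vehicle arrays alone, Bcl11a on 0 of 12 arrays and Tcf4 on all 12. Of 9 lymphocyte and NK cell markers, 4 were above background on all male dexamethasone arrays, against 2 on all male vehicle arrays, and 6 on all female dexamethasone arrays, against 7 on all female vehicle arrays. Their summed signal was 0.788 to 1.02 times the 75th percentile on the male dexamethasone arrays, against 0.883 to 1.19 on the male vehicle arrays, and 1.06 to 1.44 on the female dexamethasone arrays, against 0.923 to 1.66 on the female vehicle arrays. In males 1 of 2 tested plasmacytoid dendritic cell markers (median -1.53) and 1 of 7 lymphocyte and NK cell markers (median -0.18) passed as lower. Siglech, 1 of the 2 plasmacytoid dendritic cell markers, was kept through the female vehicle arrays alone and measured above background on no male array. The male count and median of these 2 markers are therefore not read as results. Of 5 tested endothelial cell markers 1 passed as higher (median -0.53). In females 0 of these markers passed, with medians of -1.27, -0.36 and 0.39. The part of these cells in the levels of the interferon response genes was not tested.

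**Figure D3:**
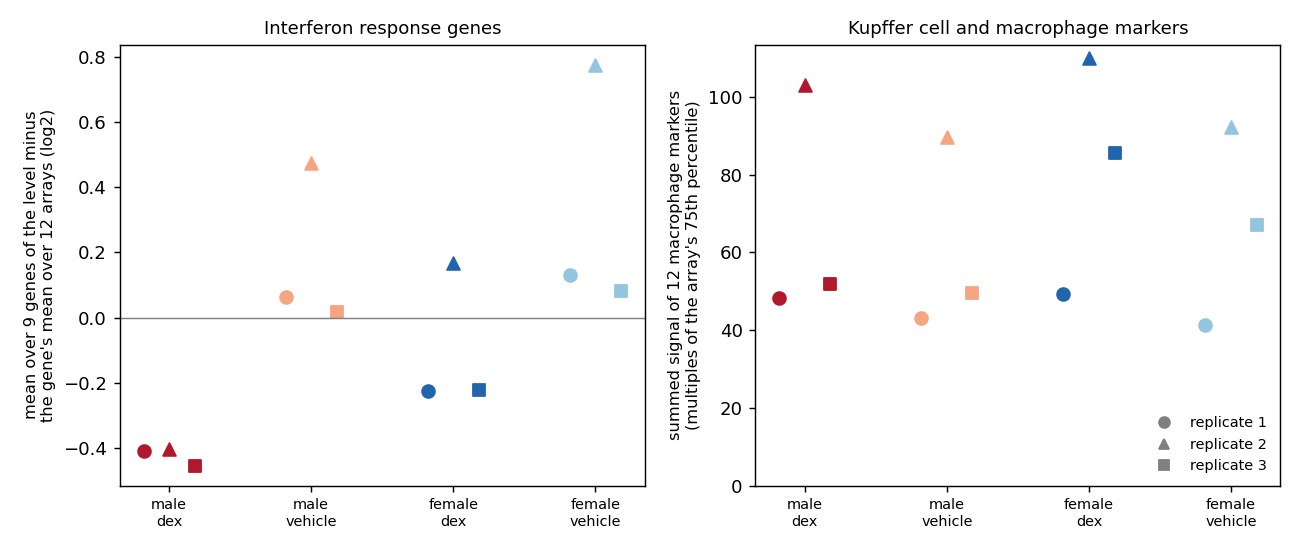
Left, the mean over the 9 genes of the level minus the gene's mean over 12 arrays (y axis, log2), for each array in the 4 groups (x axis). Right, the summed signal of the 12 Kupffer cell and macrophage markers (y axis, multiples of the array's 75th percentile). Triangles are replicate 2, which has the highest marker sum in each group, from 89.5 to 110.

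The wider interferon pathway was read from 9 lists, from sensors to antigen presentation, which hold 124 other genes, 99 of them on the array and 89 tested. In males 13 of the 89 were lower and 1 was higher, beside 4.93% and 5.24% of all tested genes, with a median difference of -0.34, against -0.07 for all genes. The distance between these medians moved with the scaling. The male median was -0.20 by quantile, against 0.04 for all genes, and -0.46 with the array median, against -0.19. With normexp it was -0.30, close to the -0.25 of all genes. In females 2 were lower and 1 higher, beside 1.08% and 2.94% of all tested genes, with a median of -0.08, against -0.02 for all genes. The male count was 17 lower and 2 higher with the replicate number as a block, 18 lower and 1 higher with normexp, 2 lower and 0 higher without replicate 2 of every group, 1 lower in the fit on the male arrays alone, and 0 with slide as a block. The female count was 5 lower and 1 higher with the replicate block, 5 lower and 3 higher on the female arrays alone, 1 lower and 0 higher without replicate 2, and 0 with slide as a block. The counts over all genes also moved with most of these settings, as given elsewhere in the text. The shares above are those of the first fit, without a block, and none is given for the replicate block. The counts under these settings are thus not read as results about the pathway.

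The chemokine Cxcl10, which attracts activated T cells and is a classic interferon gamma target, fell in both sexes. It had levels from -3.41 to -3.19 on the male dexamethasone arrays, against -0.93 to 0.94 on the male vehicle arrays, and from -1.59 to -1.19 on the female dexamethasone arrays, against 0.56 to 1.76 on the female vehicle arrays. Neither pair of groups overlapped, and Cxcl10 was 8.21-fold lower in males and 6.44-fold lower in females. The differences were -3.04 ± 0.44 in males (limma adjusted p = 0.00308) and -2.69 ± 0.44 in females (limma adjusted p = 0.00981), as log2 values with standard errors (n = 3 each). With slide as a block they were -2.95 (adjusted p = 0.0511) and -1.99 (adjusted p = 0.189) in limma.

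Of 38 tested antiviral effectors, 7 fell in males and 1 in females, and 0 rose in either, beside the same shares of all genes. With the replicate block 11 fell in males and 3 in females. No share of all genes is given for that fit, so these counts are not read as results. With slide as a block 0 fell in either. Parp14, an ADP-ribosyltransferase, fell by 1.24 in males and by 1.08 in females on the log2 scale (limma adjusted p = 0.00772 and 0.0234). Rtp4, a transmembrane protein of the interferon response, fell by 1.54 in males, and Oasl, a relative of the oligoadenylate synthetases, fell by 1.20 (limma adjusted p = 0.0132 and 0.0429). Oasl was well above background on 2 of the 3 male vehicle arrays. Among 6 tested interferon-induced GTPases other than Mx, Ifi47, Igtp and Irgm fell in males, by 1.37, 1.30 and 1.13 (limma adjusted p = 0.0375, 0.0112 and 0.0103). In females 0 of the 6 passed, against 1 lower with the replicate block and 2 on the female arrays alone. No share of all genes stands beside these last 2 counts, and they are not read as results. Fitted on the male arrays alone, 0 of the 38 effectors and 0 of the 6 GTPases passed in males.

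Upstream members of the pathway mostly did not pass. Of 8 tested receptor and JAK-STAT genes, Ifngr2, a chain of the interferon gamma receptor, fell by 0.81 in males (limma adjusted p = 0.0413), and 0 passed in females. Among 8 negative regulators, Irf2bp1 fell by 0.54 in males (limma adjusted p = 0.0429). Socs1, an inhibitor of JAK kinases, was at least 1.10-fold higher in males, a bound because no male vehicle array measured it above background (limma adjusted p = 0.0349). Ifngr2, Irf2bp1 and Socs1 did not pass on the male arrays alone (limma adjusted p = 0.207, 0.248 and 0.167). Nor did they pass without replicate 2 of every group (0.299, 0.167 and 0.251). With slide as a block the log2 difference of Socs1 was 0.41, against 1.23 without a block. Among 10 sensors and adaptors, Trim25, a ubiquitin ligase that activates RIG-I, was 0.71 ± 0.16 higher in females (log2, limma adjusted p = 0.0376), and it did not pass with slide as a block (0.113), without replicate 2 of every group (0.143), by quantile or with the array median. None of the 9 antigen presentation genes, the 4 other interferon regulatory factors or the 2 tested ligands passed in either sex by limma. Ifnb1, which encodes interferon beta, was well above background on 4 of 12 arrays and was not kept for testing.

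**Figure D4:**
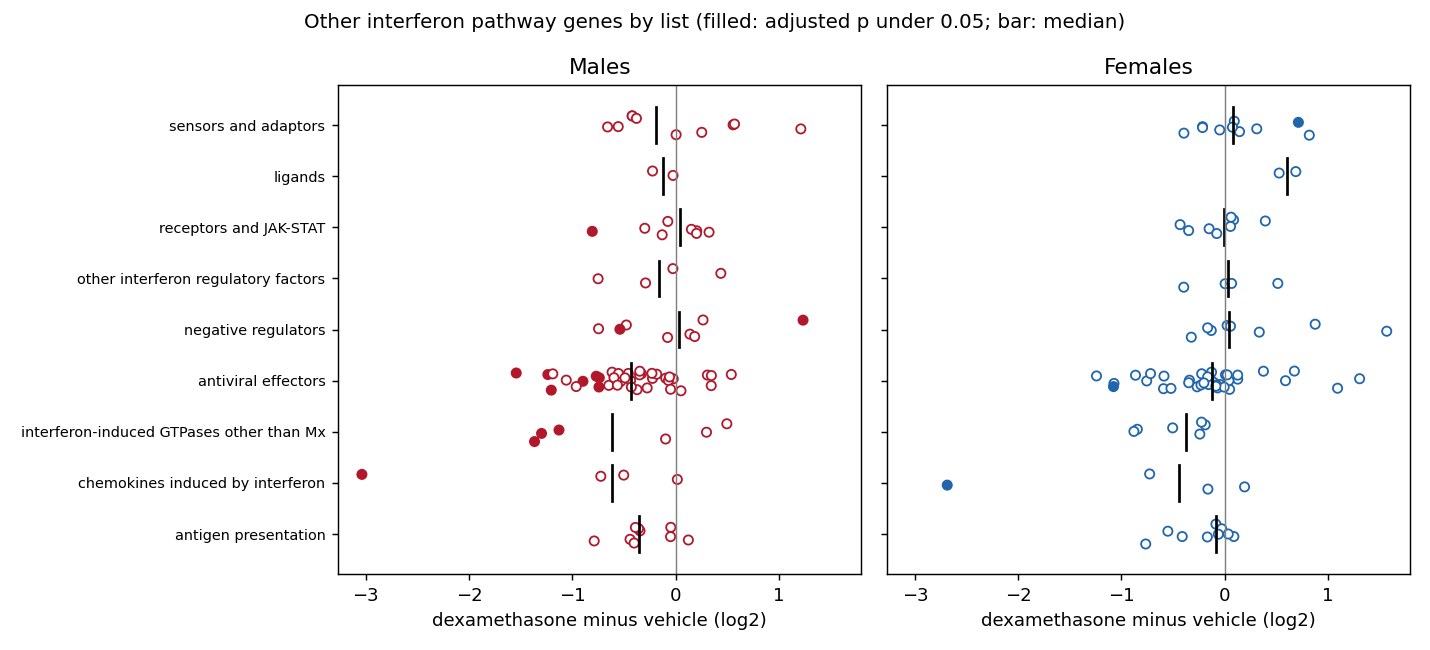
Dexamethasone minus vehicle difference (x axis, log2) of the 89 other interferon pathway genes tested, by list (y axis), in males, left, and females, right. Points are genes, filled where the adjusted p was under 0.05, and black bars are list medians. In males 13 filled points lie below 0 and 1 above, in females 2 below and 1 above, and the leftmost point in each panel is Cxcl10.

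The genes most like a member were taken as those with the smallest root-mean-square distance between centred log2 levels over the 12 arrays, among 8288 named genes above background on every array. For Irf1 these were Parp14, Arhgef40 and Plxnd1, at distances of 0.23, 0.23 and 0.23, against Irf1's own spread of 0.69 about its mean. For Rsad2 probe 1 they were Sfnl1, Nlrc4 and Pde4b, at 0.49, 0.61 and 0.62, against a spread of 1.38. Irf7 was closest to Actn3 (0.24 against a spread of 0.52), Stat2 to Cep89 (0.14 against 0.32) and Isg15 to Cmahp (0.23 against 0.48). Mx2 was closest to Krtap1-5 (0.10 against 0.36), Ifit2 probe 1 to Shmt2 (0.12 against 0.26), Ifit3 to Ccnb1 (0.27 against 0.71) and Mx1 to Napsa (0.33 against 0.68). Ifit3 was well above background on 9 of the 12 arrays and Mx1 on 7. Their distances and spreads therefore include background levels. The 12 arrays share slides and replicate numbers, so these distances describe the arrays as well as the genes.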

How the data were processed

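The deposited files, 1 per array, give an intensity per spot from Agilent Feature Extraction 9.5.3.1, per the file headers (the submitters' processing notes name version 9.5). The processed signal is a linear intensity from which the background had been subtracted, per the file headers. The authors' deposited value table holds the same intensity values, equal in 540216 of 540216 comparisons, so its scale is linear and uncentred, with column medians from 44.7 to 112.

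Control spots and outlier spots were left out, and spots of a probe were averaged as log2 values (43379 spots, 41012 probes). Levels are log2 processed signals minus each array's 75th percentile, which ran from 846 to 1241 on male dexamethasone and female arrays and from 509 to 694 on male vehicle arrays. A probe was kept if any group had it well above background on each of its 3 arrays. Names came from the files and from RefSeq, which named 19904 probes by accession, symbol or synonym. Probe positions are those of the files, on build rn3. In counts a gene was represented by its brightest kept probe.

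Comparisons used limma (3.58.1, R 4.3.3), with 4 group means fitted to all 12 arrays, eBayes and Benjamini-Hochberg adjustment over all kept probes (two-sided, threshold 0.05). On simulated data the fit recovered 72% of log2 changes of 2 and 28% of changes of 1 in the male comparison, and 76% and 34% in the female comparison (100 probes of each size among 30977). The simulated arrays had independent noise with 1 spread per probe and no slide, brightness or replicate structure. The rates therefore do not cover those features of the real arrays. Array number limits the precision. The members and gene lists were chosen with earlier results of these data known. All members were named. From each other list, up to 3 genes per response that passed, with the largest differences, were named, and marker genes are given as examples. The alternatives were other scalings, background correction, filters, blocks, array weights, the authors' table and left-out arrays. Leaving out replicate 2 of every group was added after the data were seen.

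Deviations from group means of same-numbered arrays correlated at 0.27 to 0.46 between male dexamethasone and male vehicle, 0.27 to 0.43 between female dexamethasone and female vehicle and 0.17 to 0.21 between female and male dexamethasone, so the numbers were taken to pair these groups. Between female and male vehicle they correlated at 0.02 to 0.11 and were not taken as pairs. The calls reported first come from the fit without a block, which leaves the pairing of the other groups out. The replicate block is given as an alternative.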

Additional observations from a re-analysis of the deposited data

How the results depend on the processing

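In males 2 member genes were called, and 3 by quantile (with Mx1) or normexp (with Stat2), 0 with slide as a block, within slide 1 or in the fit on the male arrays alone, and 1 without replicate 2 of every group. In females 0 were called, and 1 with the replicate block or normexp, 2 on the female arrays alone or with array weights, and 0 to 2 on leaving out an array. Between vehicle groups 1 was called, and 2 with quantile normalization, normexp or a replicate block, and 0 with slide as a block, only the groups compared, array weights, the filter on all 12 arrays, or without replicate 2, and 0 to 1 on leaving out an array. Between dexamethasone groups 0 were called, and 1 with the replicate block or only the groups compared (Mx1, kept for testing through its female arrays), 2 with array weights, and 0 to 1 on leaving out an array. The replicate block changed no other member's call. The cause was not tested.

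Over all genes the male count of 2698 was 11115 with no filter, 488 with slide as a block, 275 on the male arrays alone, 1069 with array weights, 0 within slide 1 and 310 without replicate 2 (1193 to 3563 leaving out an array). The female count of 1067 was 283 with slide as a block, 2644 on the female arrays alone, 5033 with array weights, 555 by quantile, 519 with the filter on all 12 arrays and 251 without replicate 2 (310 to 1431). For the difference between responses 28 became 6650 with no filter, 3 with slide as a block, 193 with array weights, 280 by quantile, 12 with the array median, 6 with the filter on all 12 arrays, 5 with the replicate block, and 0 with normexp or without replicate 2 (0 to 579). Between vehicle groups 3687 became 12530 with no filter, 144 with slide as a block, 852 with only the groups compared, 2194 with array weights, 12333 with normexp and 685 without replicate 2 (1683 to 4474). Between dexamethasone groups 788 became 510 with no filter, 27 with slide as a block, 4625 with array weights, 1493 with the replicate block and 80 without replicate 2 (171 to 1140). Scaling by the array median or normexp moved the median male difference of all genes to -0.19 and -0.25, against -0.07.

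The sign turned in the following cases, as log2 differences. With slide as a block the female response was 0.073 for Mx2 and 0.19 for Isg15, the same as within slide 3 (0.073 and 0.19), the difference between responses 0.28 for Stat2, female minus male in vehicle 0.54 for Irf1, 0.21 for Mx2 and -0.0089 for Isg15, and in dexamethasone 0.52 for Mx2. With array weights the female response was 0.076 for Irf7 and -0.023 for Ifit2 probe 2, and female minus male in dexamethasone -0.087 for Rsad2 probe 2 and 7.58e-05 for Mx2. By quantile the male response was 1.60 for Mx1, measured above background on 1 male array, and 0.094 for Ifit3, the female response -0.040 for Ifit2 probe 2, and the difference between responses -1.16 for Mx1. With normexp Ifit2 probe 2 was at -0.12 in males, -0.032 in females and 0.087 in their difference, where Ifit3 was at 0.090 and Isg15 at -0.017. Female minus male was then -0.55 for Mx1, -0.17 for Ifit2 probe 2 and -0.092 for Ifit3 in vehicle, and -0.18 for Rsad2 probe 2, -0.033 for Mx1, -0.082 for Ifit2 probe 2 and -0.0020 for Ifit3 in dexamethasone. With the array median the female response of Ifit2 probe 2 was -0.061 and Mx2 in dexamethasone was 0.0052. Without replicate 2 Isg15 was at 0.080 in males and -0.18 in the difference, Stat2 at 0.028 in the difference, Irf1 at 0.063 in vehicle and Ifit2 probe 2 at -0.097 in dexamethasone. Leaving out an array gave -0.57 to 0.27 for Isg15 in males. In females it gave -0.54 to 0.0013 for Irf7, -0.044 to 0.43 for Stat2, -0.094 to 0.070 for Ifit2 probe 2 and -0.27 to 0.11 for Isg15. In the difference it gave -0.051 to 1.14 for Rsad2 probe 1 and -0.38 to 0.46 for Isg15, and in vehicle -0.28 to 0.19 for Irf1 and -0.13 to 0.71 for Isg15. In dexamethasone it gave -0.058 to 0.20 for Stat2, -0.11 to 0.60 for Rsad2 probe 2, -0.17 to 0.14 for Mx2, -0.34 to 0.030 for Ifit2 probe 1 and -0.11 to 0.46 for Ifit2 probe 2.

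Of 1356 values of the 11 probes under alternatives, 57 turned in sign, 25 newly passed and 16 no longer passed. With a group's arrays mostly on 1 slide, slide and treatment are only partly separable, and probes near background, Mx1 and Ifit3 above all, carry little information in males.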
